A study of Homo sapiens with 6 samples.

Results

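The genes described are 6 neurexin and neuroligin genes, NRXN2, NRXN3, NLGN1, NLGN2, NLGN3 and NLGN4X, out of 20037 protein-coding genes. Their members in the data are the rows of 2 peak lists that overlap a gene interval of the GRCh38 annotation or the 10 kb on either side of it. This gave 47 of the 43677 CTCF peaks and 95 of the 78694 H3K27ac peaks. The lists come from chromatin immunoprecipitation followed by sequencing in 1 kind of culture: neurons grown from neural progenitor cells of the human iPSC line KOLF2.1J. No treatment or genotype was compared. There were 2 CTCF libraries, 2 H3K27ac libraries and 2 input libraries, and each list covers both libraries of its antibody, so no spread between replicates and no test over samples could be given. The wider study looked for regulatory elements of MAPT.

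Neurexins are presynaptic adhesion proteins, and neuroligins are among their postsynaptic partners across the synaptic cleft. Each neurexin gene is transcribed from an upstream promoter into long alpha forms and from an internal promoter into short beta forms that keep only the part nearest the membrane. Neuroligins differ in the synapses they are known from: NLGN1 from excitatory synapses, NLGN2 from inhibitory ones, and NLGN3 from both, while NLGN4X is an X-linked member studied in autism. H3K27ac, acetylated histone H3, marks active promoters and enhancers. CTCF binds DNA at anchors of chromatin loops and at domain boundaries.

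H3K27ac values were read as the fold enrichment of each peak. CTCF values are signal values without a stated scale, so values of the 2 lists were not compared. Both are the authors' own values for each peak. The read depth behind them is unknown. In a culture, a mark held by few cells and a weak mark held by many cannot be told apart. Neuron markers carried H3K27ac within 1 kb of a start of transcription in 6 of the 7 genes with a tabulated start, among them MAP2 (fold enrichment 35.9), TUBB3 (28.8) and DCX (21.2), whereas RBFOX3 did not. All 6 neural progenitor markers also did, among them VIM (38.7) and SOX2 (35.4). The inhibitory markers did in 4 of 4 genes, the excitatory ones in 2 of 4 (not SLC17A7 or NEUROD6), the astrocyte ones in 2 of 3 (not AQP4), the oligodendrocyte markers MBP and MOG in 0 of 2, and the pluripotency ones in 1 of 2 (not NANOG). Over all protein-coding genes with a tabulated start, 65.9% had such a peak, so counts this small stand near the background. The part that progenitors or other cells of the culture have in the values of the neurexin and neuroligin genes was not tested.

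The annotation's promoter table gave 9 starts for 5 of the 6 genes: 3 for NRXN3, 2 each for NLGN1 and NLGN4X, and 1 each for NLGN2 and NLGN3. NRXN2 had no entry. The sequences shown are those in which starts of one gene differed in H3K27ac, and the inner NLGN1 start, which had a CTCF peak beside it. Each runs 5′ to 3′ from 250 bases before to 50 bases after the start, from RefSeq on GRCh38.p14. Capitals mark CpG dinucleotides.
NRXN3 first alpha start, chr14:78170123-78170422 (plus strand): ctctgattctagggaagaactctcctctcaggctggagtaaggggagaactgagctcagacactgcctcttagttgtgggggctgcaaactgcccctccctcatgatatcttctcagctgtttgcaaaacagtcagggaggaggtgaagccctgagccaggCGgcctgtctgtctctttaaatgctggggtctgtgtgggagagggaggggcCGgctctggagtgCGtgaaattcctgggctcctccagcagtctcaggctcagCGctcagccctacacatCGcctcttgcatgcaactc
NRXN3 further alpha start, chr14:78403469-78403768 (plus strand): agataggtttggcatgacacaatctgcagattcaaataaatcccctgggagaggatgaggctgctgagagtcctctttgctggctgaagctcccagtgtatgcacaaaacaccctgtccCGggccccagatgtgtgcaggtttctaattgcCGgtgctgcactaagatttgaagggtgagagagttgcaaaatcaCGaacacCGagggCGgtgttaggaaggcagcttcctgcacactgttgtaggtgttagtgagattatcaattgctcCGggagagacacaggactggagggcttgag
NRXN3 beta start, chr14:79279130-79279429 (plus strand): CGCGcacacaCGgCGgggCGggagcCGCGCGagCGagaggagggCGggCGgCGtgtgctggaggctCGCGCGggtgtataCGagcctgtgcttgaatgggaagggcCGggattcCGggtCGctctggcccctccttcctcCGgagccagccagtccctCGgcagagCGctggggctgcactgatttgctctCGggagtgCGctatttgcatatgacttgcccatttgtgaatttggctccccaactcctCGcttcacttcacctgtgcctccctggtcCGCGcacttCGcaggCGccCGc
NLGN1 inner start, chr3:173397494-173397793 (plus strand): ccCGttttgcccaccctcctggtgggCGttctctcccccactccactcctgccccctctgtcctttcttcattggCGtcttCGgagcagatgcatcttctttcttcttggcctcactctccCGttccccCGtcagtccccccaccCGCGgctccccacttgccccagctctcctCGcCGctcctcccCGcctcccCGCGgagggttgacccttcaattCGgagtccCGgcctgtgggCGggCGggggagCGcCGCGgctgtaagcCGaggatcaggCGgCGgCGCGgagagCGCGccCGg
NLGN4X outer start, chrX:6228818-6229117 (minus strand): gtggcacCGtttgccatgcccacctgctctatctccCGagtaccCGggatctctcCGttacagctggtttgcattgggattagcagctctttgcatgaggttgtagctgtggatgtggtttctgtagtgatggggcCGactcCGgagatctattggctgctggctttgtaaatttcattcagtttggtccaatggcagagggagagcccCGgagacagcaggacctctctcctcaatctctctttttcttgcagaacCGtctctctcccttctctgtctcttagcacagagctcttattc
NLGN4X inner start, chrX:6227038-6227337 (minus strand): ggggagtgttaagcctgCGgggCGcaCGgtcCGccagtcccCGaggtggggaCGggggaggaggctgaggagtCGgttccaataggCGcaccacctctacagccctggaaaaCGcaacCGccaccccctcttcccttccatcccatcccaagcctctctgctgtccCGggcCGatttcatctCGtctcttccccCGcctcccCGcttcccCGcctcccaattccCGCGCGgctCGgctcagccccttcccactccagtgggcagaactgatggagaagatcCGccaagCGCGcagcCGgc
The NRXN3 alpha starts held 5 and 6 CpGs in these 300 bases and the beta start held 30. The outer NLGN4X start held 8 and the inner one 24, and the inner NLGN1 start held 28. The median over the 22199 tabulated starts of protein-coding genes was 21. The consensus core of the CTCF motif, searched on both strands, was in 0 of the 9 neurexin and neuroligin promoters and in 0.653% of all promoters of this length. The shorter CCCTC, also on both strands and able to share bases with that core, was in 9 of 9 and in 76.6% of all promoters. At the inner NLGN1 start the searched bases end at 173397793, before the summit of the CTCF peak beside it, at 173397979. The search therefore does not show whether that peak lacks the core. A core in 0 of 9 also says little beside a share as low as 0.653%.

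H3K27ac lay within 1 kb of 7 of the 9 tabulated starts and of at least 1 start in 5 of the 5 genes. Over all tabulated starts of protein-coding genes the share was 63.6%, and over the 15843 genes with a tabulated start it was 65.9%. The exceptions were both NRXN3 alpha starts. The start at the 5′ end of NRXN3 was 17.4 kb from the nearest H3K27ac peak, which lay upstream of the gene and had a fold enrichment of 3.12. The further alpha start, 233 kb into the gene, was 46.3 kb from the nearest peak. The beta start, 1109 kb into the gene, lay inside a peak on chromosome 14 from 79279351 to 79279708, of fold enrichment 6.86. A weaker peak from 79279011 to 79279185 (4.14) preceded it. Naming these starts alpha and beta rests on general knowledge of the gene. NRXN3 therefore had acetylation at its internal start and no listed peak at either upstream start. The value at the internal start was low, at percentile 17.7 among all tabulated starts with a peak.

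At NLGN1, which codes for the neuroligin of excitatory synapses, both starts lay inside a peak. The outer start was covered by a peak on chromosome 3 from 173395029 to 173396222, of fold enrichment 15.3. The inner start, 1.79 kb further, was covered by one from 173397155 to 173398502, of 17.8. Among all tabulated starts with a peak these values stood at percentiles 48.7 and 56.01. A weaker peak of 5.05, from 173396656 to 173396997, lay between them. At NLGN4X the order was the same and the values were lower. The outer start lay in a peak on chromosome X from 6228459 to 6229267, of fold enrichment 4.87 (percentile 8.4). The inner start, 1.78 kb further, lay in one from 6226046 to 6227807, of 13.2 (percentile 41.6). A peak of 3.96, from 6228023 to 6228348, lay between them. All 3 peaks also overlapped the long non-coding RNA LOC105373156, so the lists do not separate the genes there.

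NLGN3 had a single tabulated start, inside a broad peak on chromosome X from 71144477 to 71147139 with a fold enrichment of 17.7. The long non-coding RNA LOC124905197 overlaps it as well. NLGN2, whose product is known from inhibitory synapses, differed between its tabulated start and the 5′ end of its gene interval. The tabulated start had only weak peaks within 1 kb, of 3.37 and 3.38, and held 2 CpGs. The 5′ end of the interval, 3.19 kb upstream, lay in a peak on chromosome 17 from 7404455 to 7406535 with a fold enrichment of 20.4. NRXN2 was placed by the end of its interval with the higher coordinate, where its transcription begins by general knowledge. The nearest peak there, 80 bp outside the gene on chromosome 11 from 64723277 to 64723851, had a fold enrichment of 20.4. The other 4 peaks within 1 kb of that end were much lower, at 4.23, 3.99, 3.40 and 3.33. Among all tabulated starts with a peak, the median of the highest fold enrichment within 1 kb was 15.7.

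**Figure D1:**
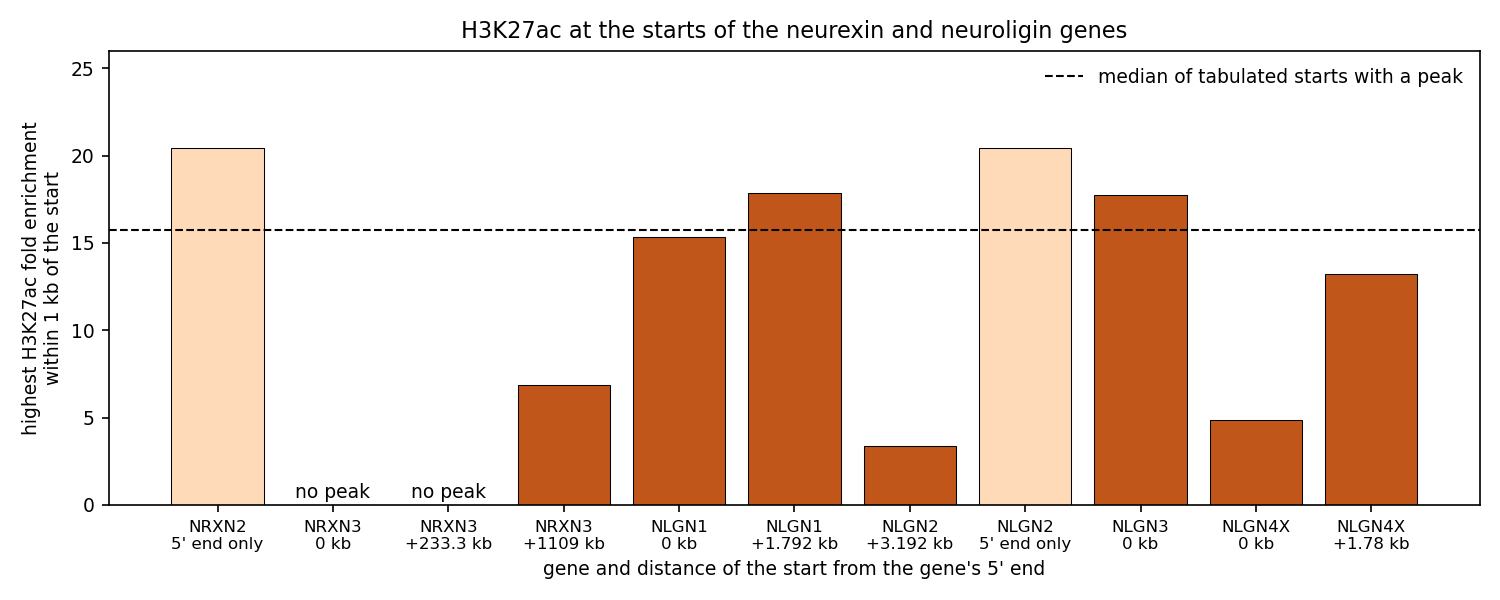
Bars give the highest H3K27ac fold enrichment within 1 kb of each start, with starts ordered by gene and labelled by their distance in kb from the 5′ end of the gene; pale bars are gene-interval ends that are not in the promoter table, and the dashed line is the median over tabulated starts with a peak (15.7). The 2 NRXN3 alpha starts have no bar, and the beta start reaches 6.86.

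The acetylated and unacetylated starts of NRXN3 also stood in different classes of CpG number, a division made after the values were seen. Across protein-coding genes, 36.9% of the 2616 starts with 5 to 9 CpGs had H3K27ac within 1 kb, against 86.2% of the 6416 starts with 30 or more. Both NRXN3 alpha starts were in the former class and the beta start in the latter. The outer NLGN4X start was in the former class too, with a peak. The tabulated NLGN2 start was in the class of 0 to 4 CpGs, of which 15.2% had a peak. The starts of NLGN1, NLGN3 and the inner start of NLGN4X held 21 to 28 CpGs, in classes with shares of 82.7% and 85.5%.

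**Figure D2:**
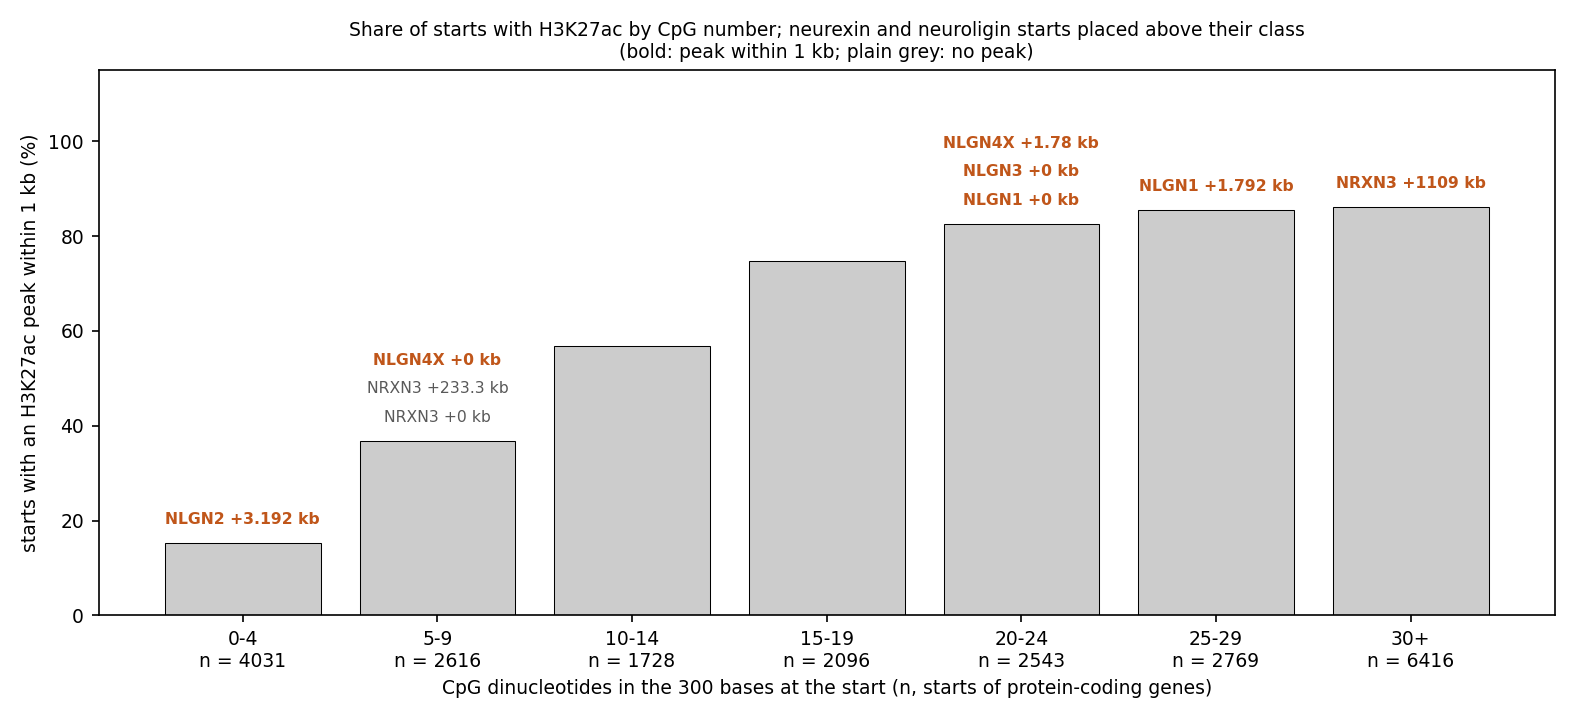
Bars give the percentage of tabulated protein-coding starts with an H3K27ac peak within 1 kb, by the number of CpG dinucleotides in the 300 bases at the start. Neurexin and neuroligin starts are written above their class, in bold where they had a peak; the share rises from 15.2% in the lowest class to 86.2% in the highest.

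CTCF was less frequent at these starts than H3K27ac. A CTCF peak lay within 1 kb of 1 of the 9 tabulated starts and in 1 of the 5 genes, where the shares over all tabulated starts and genes were 32.2% and 35.4%. The one was the inner NLGN1 start, where a peak on chromosome 3 from 173397756 to 173398189 began 12 bp past the start. Its signal value of 103 was at percentile 54.2 of the list, and it lay inside the H3K27ac peak of that start. At NRXN2, outside the table, a much stronger peak on chromosome 11 from 64723373 to 64723875 lay 176 bp outside the 5′ end of the gene, with a signal value of 338 at percentile 98.4. It shared bases with the H3K27ac peak there. NLGN2 and NLGN3 had weaker CTCF peaks 1.12 kb and 1.49 kb from their tabulated starts, with signal values of 17.8 and 59.97. Both NLGN4X starts were at least 134 kb from the nearest CTCF peak.

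Along the genes, NRXN2 was the most densely marked per length for CTCF and NLGN2 for H3K27ac. Peak numbers and densities per 100 kb are those of the gene with its 10 kb flanks. NRXN2, with an interval of 117 kb on chromosome 11 from 64606174 to 64723197, held 14 CTCF peaks (10.2 per 100 kb of the 137 kb with flanks) and 20 H3K27ac peaks (14.6 per 100 kb). At least 1 CTCF peak was found in 75.0% of protein-coding genes with the same flanks and at least 1 H3K27ac peak in 76.9%, and all 6 neurexin and neuroligin genes had both. Of the 1345 protein-coding genes within 20% of the length of NRXN2, 1344 had fewer CTCF peaks, 1 had the same number and 0 had more. Their median was 2. Among the same genes 96.6% had fewer H3K27ac peaks, with a median of 4.

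The CTCF count of NRXN2 was made up largely of weak entries. Peaks of exactly 800 bp, a width that recurs in 33.4% of the whole list, were 8 of the 14, with signal values from 10.1 to 45.6. The interval from 64688303 to 64689074 was listed for 2 summits, with values of 282 and 24.99. With overlapping entries merged NRXN2 had 10 intervals and exceeded 99.8% of genes of similar length. Without the width of 800 bp it had 6 peaks and exceeded 98.0%. With the stronger 50% of the CTCF list it had 3 peaks and exceeded 84.5%. These 3 were the peak at the 5′ end, the one 34.6 kb into the gene, with 282, and one 69.9 kb into the gene, with 297.

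The H3K27ac peaks of NRXN2 formed 4 groups when peaks less than 5 kb apart were joined. The group at the 5′ end held 11 peaks over 12.4 kb. The highest value in the gene, 21.5, belonged to a peak from 64688613 to 64689192, 34.5 kb from the 5′ end, which overlapped the CTCF interval listed for 2 summits. A group of 3 peaks followed, the highest at 7.19, none of which overlapped the antisense gene NRXN2-AS1 next to it. The edges of 2 weak CTCF entries, whose summits lay outside the group, shared bases with it. The group nearest the 3′ end held a broad peak from 64619688 to 64622387 with a fold enrichment of 17.4, under which 3 weak CTCF entries of the recurrent width lay. Internal starts of NRXN2 were not placed.

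NRXN3, the longest of these genes at 1698 kb, runs on chromosome 14 from 78170373 to 79868291. It held 19 CTCF peaks (1.11 per 100 kb) and 38 H3K27ac peaks (2.21 per 100 kb). Only 19 other protein-coding genes were within 20% of its length. Of these, 17 had fewer CTCF peaks, 2 had as many and 0 had more, around a median of 11. For H3K27ac 16 had fewer and 3 had more, around a median of 12. This H3K27ac rank depended on the length tolerance. NRXN3 exceeded 84.2% of the genes within 20% of its length, 60% of those within 10% and 77.1% of those within 50%. The height of acetylation went the other way. The highest fold enrichment in NRXN3, 9.02 at a peak from 78891979 to 78893713, was below the highest in 15 of the 19 genes, whose median was 18.2. It was followed by 7.82 and 7.41, and the lowest was 2.27. The 38 peaks fell into 23 groups, 15 of them single peaks, spread over most of the gene. The largest group, 5 peaks from 78610372 to 78613152, reached 5.69. One further peak, of 4.55, overlapped the antisense gene NRXN3-AS2.

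All 19 CTCF peaks of NRXN3 and its flanks lay before the beta start. Of the 18 CTCF peaks inside the gene, 17 (94.4%) lay in the first 50% of its length. Among 84 other protein-coding genes of at least 500 kb with 10 or more CTCF peaks, the median share was 50% and 0 had a share as high; this split was chosen after the positions were seen. The last CTCF peak in the gene, from 79091386 to 79092185, was followed by 777 kb without any up to the gene's 3′ end. Of 261 other genes of at least 500 kb, 11 had a longer CTCF-free stretch. Stretches were measured inside the gene, so genes shorter than 777 kb could not have a longer one, and 11 of 261 does not measure rarity. The long genes compared here were those with a tabulated start. Counted past the gene, the stretch that contains the beta start ran for 964 kb. Of the 38 H3K27ac peaks, 25 (65.8%) lay in the first 50%, where the median over 163 long genes with 10 or more was 44.8% and 28 had a share as high. The strongest CTCF peaks of the gene were 351 (from 78597971 to 78598461), 328 (from 78566496 to 78566984) and 262 (from 78848193 to 78848668), and none of the 3 overlapped H3K27ac.

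**Figure D3:**
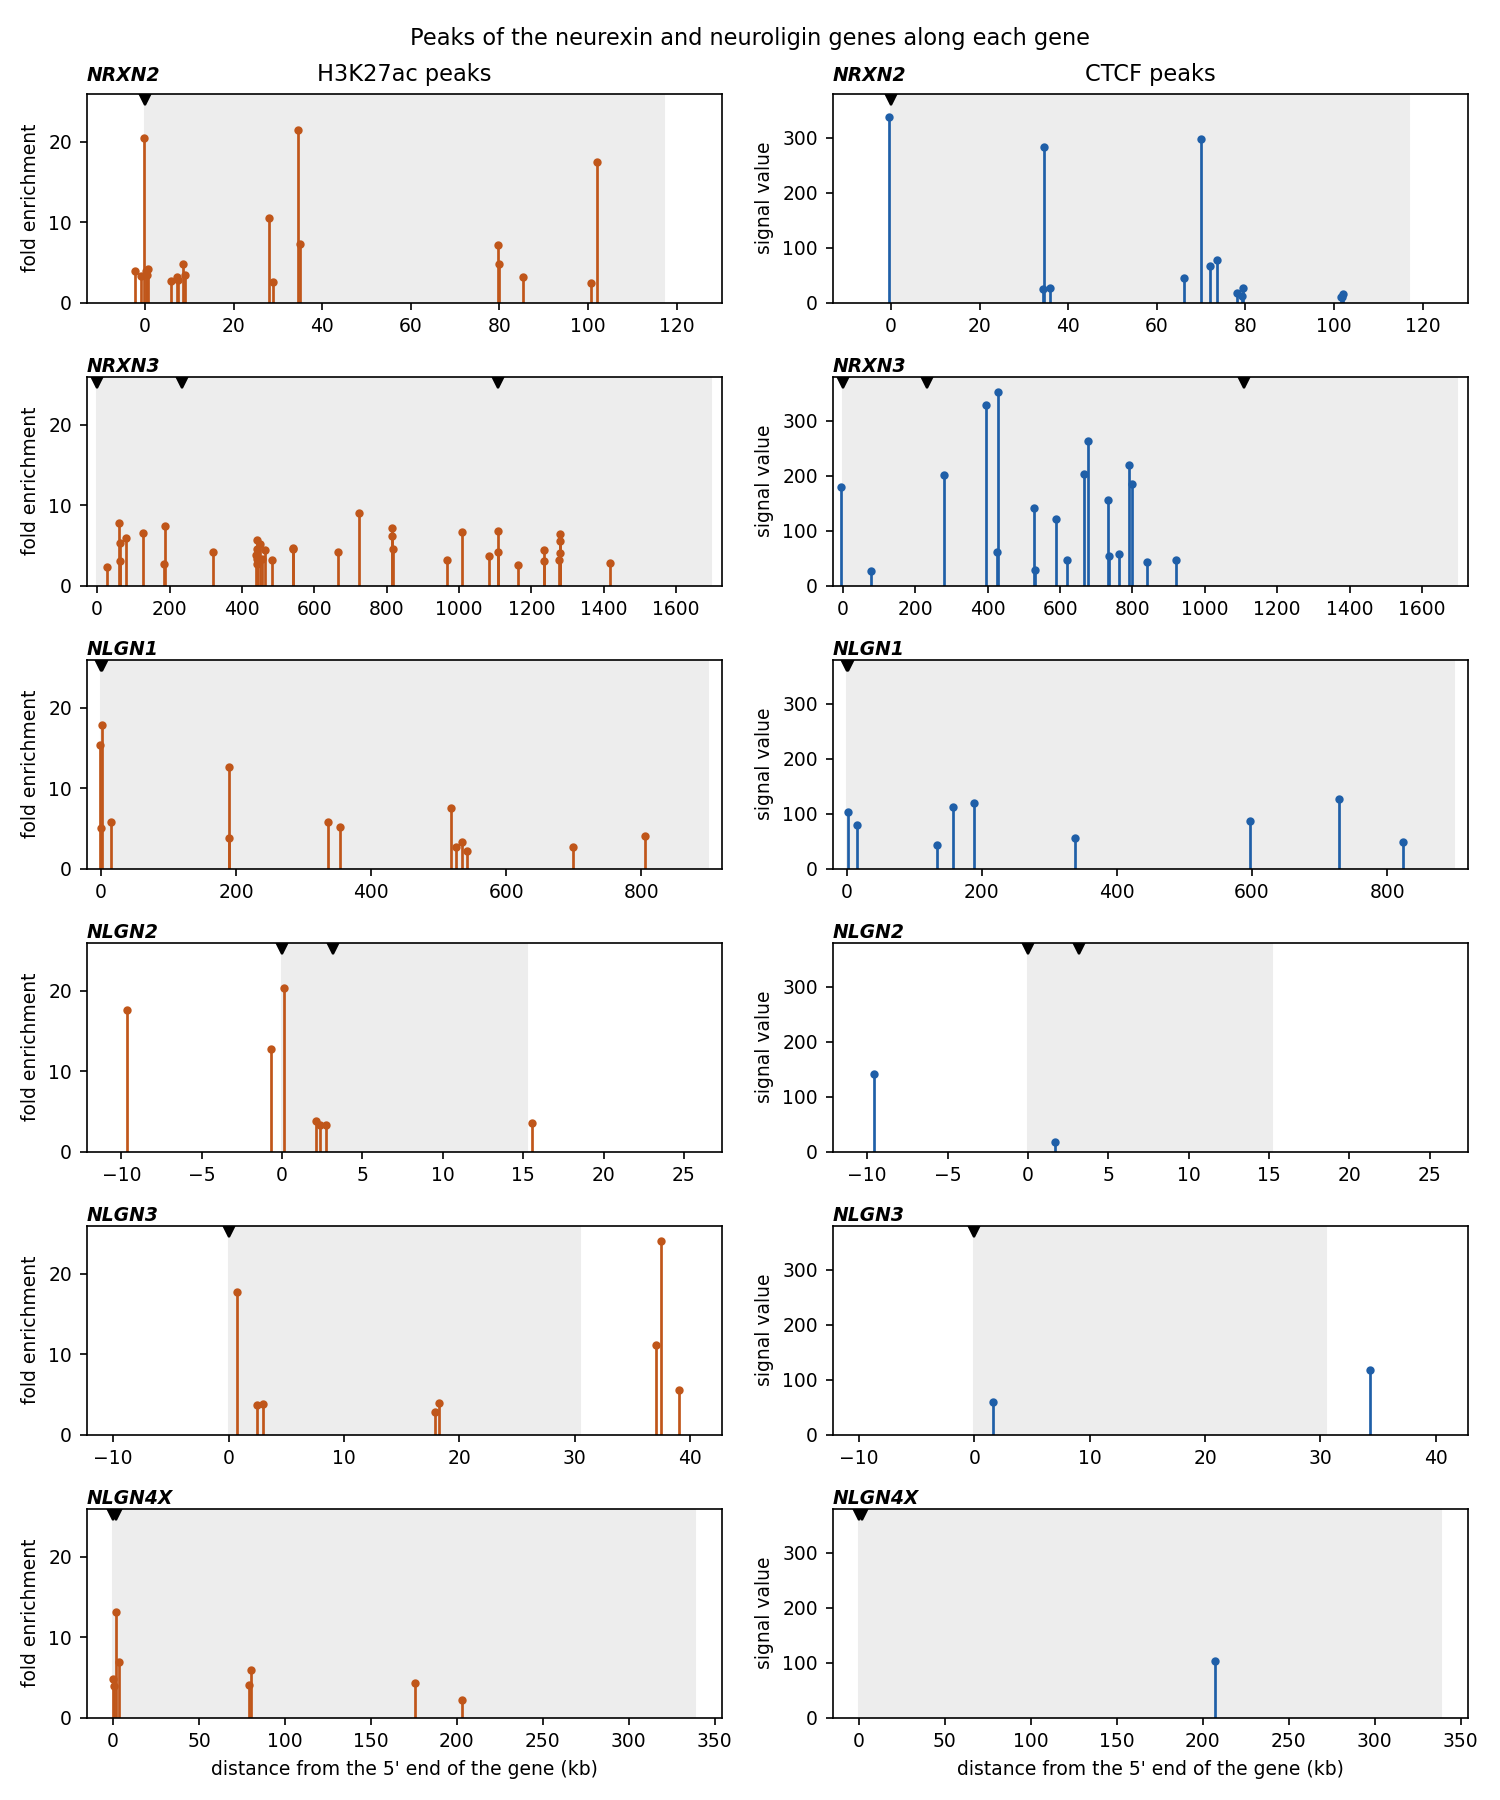
Each peak is a line at its summit's distance in kb from the 5′ end of the gene, with H3K27ac fold enrichment in the left panels and CTCF signal value in the right panels; grey marks the gene and black triangles mark starts. In NRXN3 all H3K27ac peaks stay at or below 9.02, and no CTCF peak lies beyond 921 kb.

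NLGN1 had peak numbers near the middle of its 97 genes of similar length. It extends over 898.4 kb on chromosome 3 from 173395952 to 174294372 and held 9 CTCF peaks, where the median was 8, and 14 H3K27ac peaks, where the median was 15. Its highest fold enrichment of 17.8 was also near the median of 17.3. Its CTCF peaks were weak for such a gene: the highest, 126 from 174125258 to 174125644, was under the highest in 80 of the 97, whose median was 220. Away from the starts, the strongest H3K27ac peak ran from 173584524 to 173586086, 190 kb into the gene, with a fold enrichment of 12.6. A CTCF peak with a signal value of 120 ended right before it, at 173584515, without sharing bases. A CTCF peak of 112 lay 158 kb into the gene. An H3K27ac peak of 7.60, from 173914036 to 173914758, overlapped the antisense gene NLGN1-AS1.

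NLGN4X, with 339 kb on chromosome X from 5890042 to 6228867, had little CTCF for its length. It held 1 CTCF peak, from 6021353 to 6021703 and of signal value 104, whereas 400 of the 436 genes of similar length had more and 10 had fewer. Their median was 5. These genes came from all chromosomes, and whether other genes of chromosome X hold as little CTCF was not tested. Around the NLGN4X starts no CTCF peak was listed over 341 kb. With 8 H3K27ac peaks it was close to the median of 9. Of these, 4 lay within 4 kb of the 5′ end, among them one of 6.93 from 6225277 to 6225653. The strongest of the remainder, 5.96 from 6148648 to 6149398, lay 80.1 kb into the gene.

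The short genes NLGN2 and NLGN3 had many H3K27ac peaks for their length. NLGN2, 15.2 kb on chromosome 17 from 7404653 to 7419860, held 7 with its flanks (19.9 per 100 kb of 35.2 kb), more than 90.7% of 2042 genes of similar length. However, 3 of the 7 were in the flanks and overlapped neighbouring genes: a peak with 17.6 overlapped PLSCR3, one with 12.7 overlapped TMEM256, and one with 3.57 overlapped SPEM1. Its 2 CTCF peaks had signal values of 141, in the 5′ flank, and 17.8. NLGN3, 30.5 kb on chromosome X from 71144841 to 71175307, held 8 H3K27ac peaks with its flanks (15.9 per 100 kb of 50.5 kb), more than 92.5% of 2117 genes. The strongest of these lay in its 3′ flank from 71182245 to 71183263 with a fold enrichment of 24.1. A peak of 11.2 preceded it, and one of 5.59 followed it and overlapped the long non-coding RNA LOC107985688. Its CTCF peaks had signal values of 118, also in the 3′ flank, and 59.97. The H3K27ac ranks of NLGN2 and NLGN3 depended on the settings. With the stronger 50% of the H3K27ac list NLGN2 kept 3 peaks and exceeded 73.8% of genes of similar length, and NLGN3 kept 4 and exceeded 86.3%. With flanks of 50 kb they exceeded 77.5% and 84.4%, and without flanks 92.8% and 91.7%. Of the 7 H3K27ac peaks of NLGN2, 5 lay in 1 stretch of 4.4 kb.

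**Figure D4:**
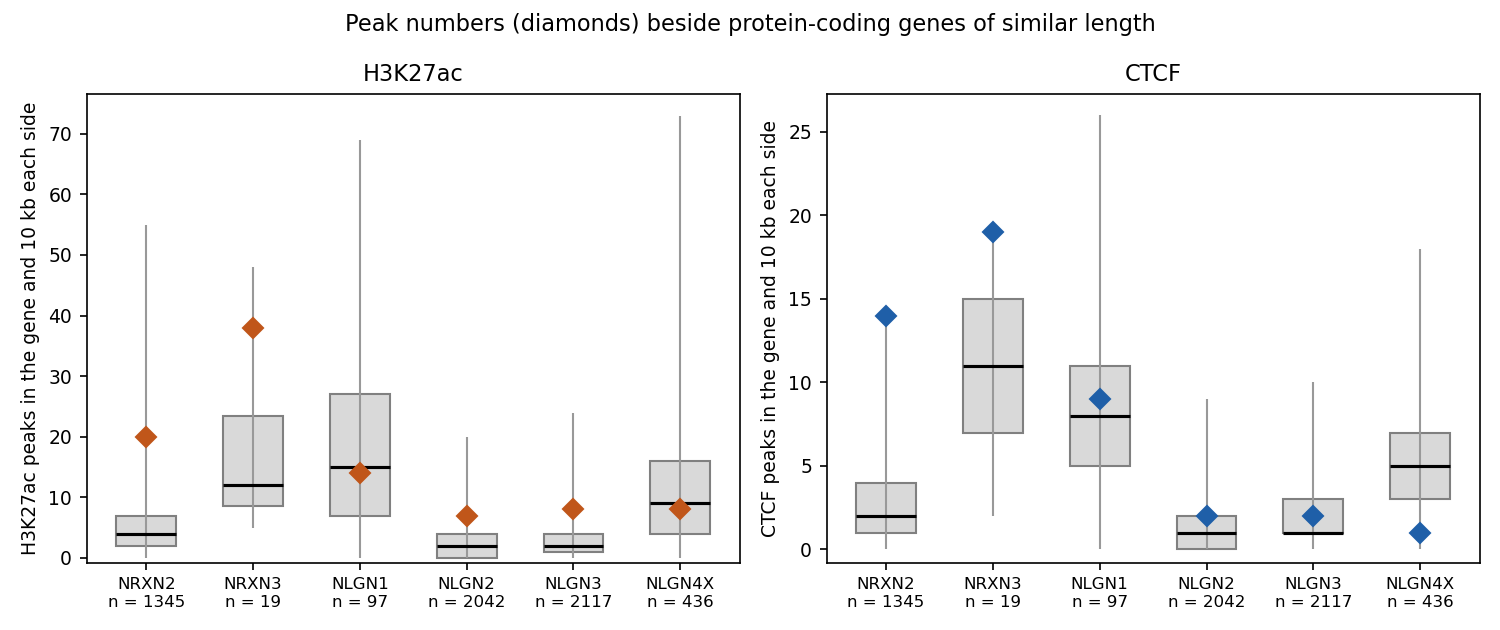
Diamonds give the number of peaks in each gene and its 10 kb flanks, for H3K27ac on the left and CTCF on the right. Boxes span the quartiles, black lines the median and grey lines the full range over the n protein-coding genes within 20% of the length; for CTCF, NRXN2 stands at 14 against a median of 2 and NLGN4X at 1 against a median of 5.

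Over the 6 genes, 14 of the 47 CTCF peaks shared bases with an H3K27ac peak, which is 29.8%. This was close to the 28.1% of the whole list. The 95% Wilson interval, of counting error only, was 18.7 to 44.0%. It takes entries as independent, although some entries of NRXN2 overlap each other, so it does not measure spread between genes. With overlapping entries merged the total was 10 of 43. The overlap was uneven between genes. It was 9 of 14 in NRXN2 and 2 of 2 in NLGN2, against 1 of 19 in NRXN3, 1 of 9 in NLGN1, 1 of 2 in NLGN3 and 0 of 1 in NLGN4X. Without the CTCF entries of 800 bp the total was 6 of 30. The listed q was above 0.05 for 6 of the 47 CTCF peaks, 5 of them in NRXN2, and for 11 of the 95 H3K27ac peaks. The shares of the whole lists with such q, and of overlap with entries merged or without entries of 800 bp, were not taken. These counts are therefore not read as particular to the 6 genes.

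Genes listed as ligands or partners of neurexins or neuroligins were read at their tabulated starts in the same way. A listed partner need not bind them directly. Of 14 neurexin ligands with a tabulated start, 10 had H3K27ac within 1 kb (71.4%, against 65.9% of all genes). The highest values were at ADGRL3 (31.0) and ADGRL2 (28.3), which code for latrophilins, and at DAG1 (22.1), which codes for dystroglycan. The ligand genes C1QL2, C1QL3, NXPH2 and IGSF21 had none. The median over ligands with a peak was 7.59, where the median over all genes with a peak was 15.9. The leucine-rich repeat ligands LRRTM1, LRRTM2 and LRRTM3 had 13.99, 5.02 and 3.68, and the secreted ligand CBLN2 had 6.01. CTCF lay within 1 kb of a start in 11 of the 14 ligands (78.6%, against 35.4% of all genes), including C1QL2, C1QL3 and NXPH2. The list held 20 ligands, and those without a tabulated start are outside these counts and the median of 7.59. In the gene with its 10 kb flanks, the highest fold enrichment was 41.4 for NXPH4, 27.3 for CBLN1, 24.1 for ADGRL1 and 11.4 for LRRTM4. CBLN4 and NXPH3 had no H3K27ac peak there.

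Of 9 listed intracellular partners of neurexins, 6 had a tabulated start. All 6 had H3K27ac within 1 kb of it, against 65.9% of all genes, with a median fold enrichment of 21.1. The highest were CASK (28.8), which codes for a scaffold kinase that binds the neurexin tail, LIN7C (26.5) and APBA2 (23.5). All 13 postsynaptic partners of neuroligins with a tabulated start, of 21 listed, did as well, with a median of 18.3. DLG4, which codes for the scaffold PSD-95, had 40.6, HOMER1 had 31.0, and GPHN, which codes for gephyrin of inhibitory synapses, had 23.1. The lowest were DLGAP1 (2.27) and SHANK3 (3.93). CTCF was within 1 kb in 5 of the 6 and in 8 of the 13, against 35.4% of all genes. Together 29 of 33 partner genes had H3K27ac within 1 kb of a start. When the peak had to contain the start 19 of 33 did, against 46.6% of all genes. A gene counted if any of its tabulated starts had a peak, and its value was the highest over them. Partner genes had from 1 start (as LRRTM1) to 9 (DLG2), where all 15843 genes had 22199. More starts give more occasions for a peak, and the shares and medians were not adjusted for this.

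**Figure D5:**
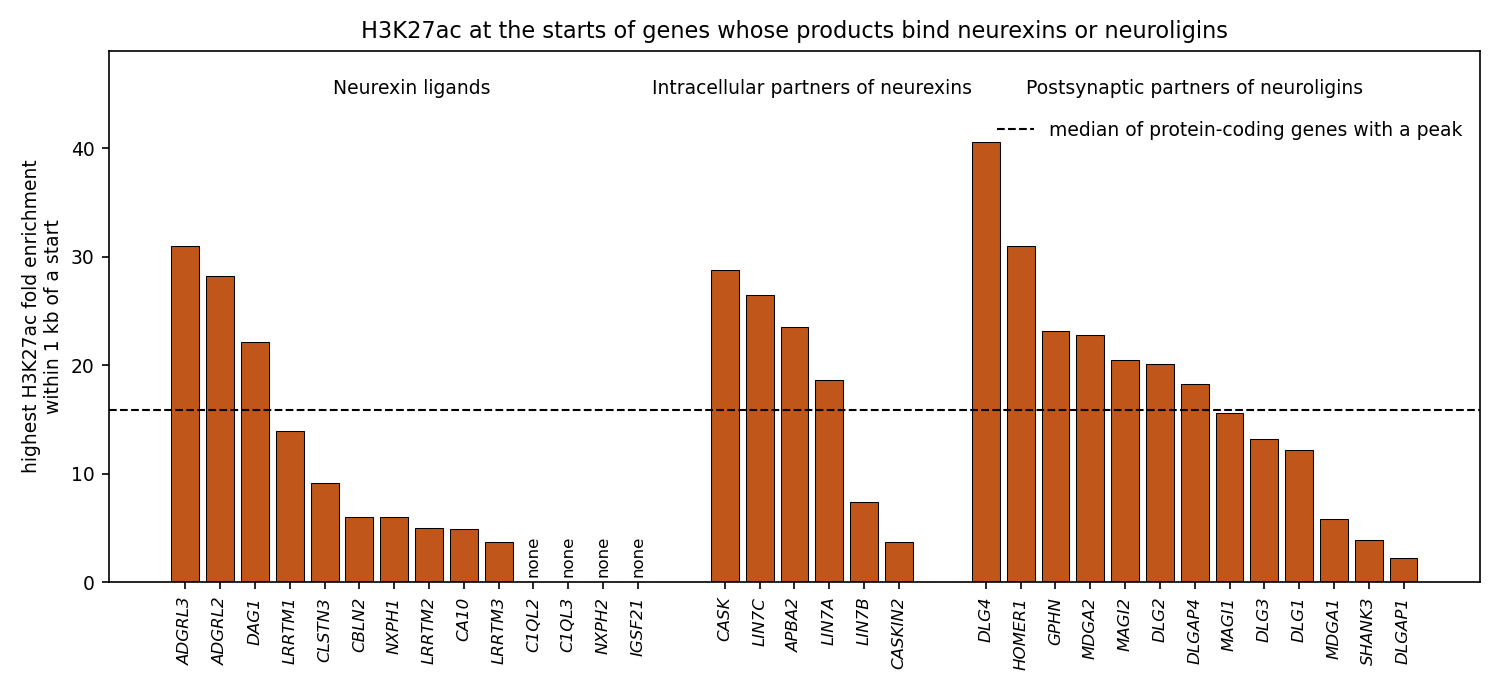
Bars give the highest H3K27ac fold enrichment within 1 kb of a tabulated start for each partner gene, sorted within 3 lists, with the median over protein-coding genes with a peak as a dashed line (15.9). The 4 ligand genes without a peak are marked, and DLG4 is highest at 40.6.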

How the data were processed

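The deposited lists hold 10 columns per peak and no header, and 1 list covers both libraries of an antibody. Per the submitters' processing notes, hg38 was the genome build and cutadapt 1.16 was among the tools; the aligner and peak caller are not given in the sources used here. In the deposited CTCF list the signal value has no stated scale. In the deposited H3K27ac list the corresponding column was read as a fold enrichment (ratio). Both deposited lists give −log10 q, and a score of at most 1000 that was not used. Input libraries had no list and were not analysed here.

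Peaks were joined to GRCh38.p14 gene intervals and promoter starts from RefSeq with Python 3.11.15, pandas 2.3.3 and scipy 1.17.1, and the overlap code was tested on simulated intervals. A shared base counted as overlap. As a check of positions, 43.5% of 22199 tabulated starts lay inside an H3K27ac peak, against 2.41% to 2.98% after shifts of 5 to 500 kb. Comparison genes were protein-coding and within 20% of the length; no test was run, since no per-sample values were used. Of the partner genes, 33 of 50 had a tabulated start.

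Genes were chosen with earlier results of these data known, as were partner and marker lists. The peaks named are those within 1 kb of a start and the 3 highest per gene and list, with further peaks chosen after their values were seen. In partner lists, the 3 highest genes and those without a peak were to be named. Others (LRRTM1, LRRTM2, LRRTM3, CBLN2, DLGAP1 and SHANK3) were added after their values were seen. So were the ligands and markers without a tabulated start. Grouping within 5 kb, CpG classes, the division of long genes and CTCF-free stretches were also added then. Alternatives changed the extension, the overlap rule, the peak threshold, the length tolerance and the CTCF entries used.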

Additional observations from a re-analysis of the deposited data

How the results depend on the processing

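No paired analysis was possible because each list merges both replicates, and for the same reason no replicate could be left out; precision is limited by an unknown depth. Using the stronger 50% of each list took the CTCF peaks of the 6 genes from 47 to 21, their H3K27ac peaks from 95 to 41, and the number of genes with more CTCF peaks than the median of genes of similar length from 5 to 3. Leaving out CTCF entries of 800 bp gave 30 CTCF peaks, of which 6 overlapped H3K27ac. With windows of 100 bp either side of the summits 7 of 47 did, in place of 14. The shares of the whole list under these settings were not taken. Genes with CTCF at a tabulated start numbered 1, 0 when the peak had to contain the start and 3 within 5 kb. Genes with H3K27ac at a tabulated start went from 5 to 4 when the peak had to contain the start. They also numbered 4 with the stronger 50% of the list and with q under 0.01, and 5 within 5 kb. Partner genes with H3K27ac at a start went from 29 to 19 when the peak had to contain it. Of the values for single genes and totals under the alternatives, 114 stayed within 1.5 times the main count or inside the interval of the main percentage, and 58 did not. NRXN3 exceeded 80% to 100% of genes of similar length in CTCF peaks over all alternatives, and NLGN4X 1.44% to 14.7%. The causes of these shifts were not tested, beyond the fewer peaks that stricter lists hold.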

Other observations

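In some partner genes the strongest H3K27ac peak of the gene and its 10 kb flanks was not at a tabulated start. DLGAP1, a postsynaptic scaffold gene, had a fold enrichment of 2.27 at its starts and a peak of 62.2 elsewhere in its window. GPHN had 23.1 at its start and 70.9 elsewhere, MAGI1 had 15.6 and 40.6, and LIN7B had 7.41 and 31.9. Whether those peaks belong to neighbouring or nested genes was not tested.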
